A study of Mus musculus with 12 samples.

Results

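The genes described here are the 9 members of a set that runs the futile creatine cycle and the futile calcium cycle, chosen by gene symbol from the 53379 gene identifiers of an RNA-seq series on mouse fat. All 9 passed the filter on low counts and were among the 16554 genes tested. The tissue was perigonadal white adipose tissue, the fat depot beside the gonads, from C57BL/6 mice of 9 weeks. One pair of groups, called wt, came from control littermates, and the other pair, called ko, carried an adipose knockout of Cdk7, a kinase of the general transcription machinery. Within each genotype, one group received saline and the other CL for 7 days, and all mice were killed at zeitgeber time 9. The labels give only the letters CL, which in this field stand for a beta-3-adrenergic agonist. Each of the 12 libraries, 3 per group, held RNA of 2 mice pooled in equal amounts, so that the p-values below measure the spread between such pools. The labels name neither the promoter that drives the recombinase nor the cells it reaches within the fat pad.

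White and beige adipocytes can release heat by cycles that spend ATP without doing net work. In the creatine cycle, Gatm and Gamt make creatine, Slc6a8 imports it, the creatine kinases Ckb and Ckmt1 (the brain-type and the ubiquitous mitochondrial enzyme) phosphorylate it, and Alpl, a phosphatase found in mitochondria of thermogenic fat cells, splits phosphocreatine. In the calcium cycle, the pump SERCA2, encoded by Atp2a2, moves calcium into the endoplasmic reticulum at the cost of ATP, and ryanodine receptors such as Ryr1 and Ryr2 let it out again. Several of these genes are also used outside adipocytes: Ckb in brain, Ryr1 in skeletal muscle and Ryr2 in the heart.

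Among the members with an entry in the RefSeq promoter table, Gatm, Ckb and Ryr1 had the 3 largest differences in CL response between the genotypes, and their promoters are shown for that reason. Each runs 5′ to 3′ from 250 bases before to 50 bases after the gene's start, in GRCm38.p6, with motif matches in capitals. The capitals are TGACCT, the nuclear receptor hexamer, in Gatm, and TATAAA, the TATA box, in Ckb. The Ryr1 window held no match.
Gatm, chr2:122611228-122611527, minus strand: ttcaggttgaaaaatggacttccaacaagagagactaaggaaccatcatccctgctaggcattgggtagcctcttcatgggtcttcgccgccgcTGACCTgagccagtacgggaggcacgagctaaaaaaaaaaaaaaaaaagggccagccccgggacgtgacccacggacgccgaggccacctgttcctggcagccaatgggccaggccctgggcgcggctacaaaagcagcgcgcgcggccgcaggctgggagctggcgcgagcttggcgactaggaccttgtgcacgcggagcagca
Ckb, chr12:111672289-111672588, minus strand: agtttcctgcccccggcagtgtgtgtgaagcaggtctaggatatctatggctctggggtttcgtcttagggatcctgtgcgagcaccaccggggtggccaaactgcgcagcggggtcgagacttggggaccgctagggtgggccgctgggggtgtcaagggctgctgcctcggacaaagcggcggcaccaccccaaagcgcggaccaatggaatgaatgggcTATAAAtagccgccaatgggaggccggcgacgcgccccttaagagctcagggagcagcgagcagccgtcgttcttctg
Ryr1, chr7:29125102-29125401, minus strand: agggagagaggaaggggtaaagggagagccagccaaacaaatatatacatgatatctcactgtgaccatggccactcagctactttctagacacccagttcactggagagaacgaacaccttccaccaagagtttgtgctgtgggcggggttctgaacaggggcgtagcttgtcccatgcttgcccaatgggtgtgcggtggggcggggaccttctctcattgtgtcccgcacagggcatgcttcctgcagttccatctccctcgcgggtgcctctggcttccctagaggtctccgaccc

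Of the 9 members, 7 matched a promoter entry in that table, and Slc6a8 and Atp2a2 did not. Both strands of the members' windows were searched for TGACCT, for TATAAA, for TCAAGGTCA, the element of estrogen-related receptors, for TGACGTCA, the full cAMP response element, and for GAGGAAGT, a core of the myeloid factor PU.1 that was added after the data were seen. The hexamer is contained in the reverse strand of TCAAGGTCA, so those matches can overlap. The Gatm hexamer began 156 bases before the start, and the Ckb TATA box began 28 bases before it. Over all 32851 windows of this length, 16.3% held the hexamer, 13.6% the TATA box, 0.423% TCAAGGTCA, 1.79% TGACGTCA and 3.2% GAGGAAGT. No member's window held any of the last 3 motifs. The hexamer also occurred in a window of Ckmt1, of Alpl and of Ryr2, and the letters TATAAA in a window of Ckmt1 and of Alpl. In Ckmt1 these letters lay on the reverse strand from 31 bases before the start. In Alpl they lay on the reverse strand from 192 bases before it. GC content was 60.7% for Gatm, 63.0% for Ckb and 56.7% for Ryr1, against a median of 52.7% over all windows. A match is a description of these letters, and binding was not measured.

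Libraries held 21892817 to 27985019 counts in genes. Levels are in CPM, where each library's counts are divided by its total after TMM normalization, a step that keeps a few very abundant genes from lowering all others. Cdk7 was 29.29 to 35.43 CPM in the 6 wt libraries and 11.02 to 23.56 CPM in the 6 ko libraries, with no overlap (two-sided exact permutation p = 0.00216, the smallest that 6 against 6 allows). Within ko, Cdk7 was 11.02 to 11.72 CPM under saline and 18.06 to 23.56 CPM under CL. The summed CPM of 11 adipocyte markers ran from 44329 to 50455 under saline in wt and from 51615 to 55483 under CL in wt. In ko it was 25002 to 27296 under saline and 12999 to 21240 under CL. The summed CPM of 19 macrophage markers was 1896 to 2002 in wt saline, 1022 to 1210 in wt CL and 1825 to 1914 in ko saline, but 9813 to 13506 in ko CL. In bulk tissue, fewer cells of a type and less RNA per cell cannot be told apart. Fold changes below are log2 values from 1 edgeR model over all 12 libraries, with standard errors. A gene was called where the quasi-likelihood p, adjusted over all 16554 genes by the Benjamini-Hochberg method, was under 0.05. Cdk7 itself rose under CL in ko by 0.84 ± 0.10 (edgeR adjusted p = 1.01e-05), and its change of 0.14 ± 0.09 in wt was not called (edgeR adjusted p = 0.251). Its ko against wt difference was -1.38 ± 0.095 under saline (edgeR adjusted p = 6.21e-06) and -0.68 ± 0.09 under CL (edgeR adjusted p = 3.64e-05). The cause of that rise was not tested.

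In wt mice, CL lowered 5 of the 9 members (Gatm, Gamt, Ckb, Ckmt1 and Ryr1) and raised 1 (Atp2a2). Over all genes tested, 17.1% were lower and 19.6% higher in this comparison. In ko mice, CL raised 5 members (Gatm, Slc6a8, Ckb, Alpl and Ryr1) and lowered 2 (Gamt and Ckmt1), where 27.2% of all genes rose and 27.5% fell. Ckmt1, counted as lowered in both genotypes, passed the filter on low counts only through its saline libraries. Between the genotypes under saline, 1 member, Slc6a8, was called higher in ko and none lower, against 7.99% and 6.45% of all genes. Under CL, 6 members (Gatm, Gamt, Slc6a8, Ckb, Alpl and Ryr1) were higher in ko and none lower, against 27.6% higher and 29.3% lower among all genes. The same 6 members had a CL response that was more positive in ko than in wt, and none had a more negative one, against 21.8% and 23.6% of all genes. The median log2 fold change of the 9 members was -0.67 for CL in wt, 0.94 for CL in ko, -0.05 for ko against wt under saline, 0.73 for ko against wt under CL and 0.85 for the difference in response. The corresponding medians of all genes lay between -0.03 and 0.003. With scaling by library size alone, CL in wt lowered 6 members and raised none, beside 1329 genes higher and 8048 lower (3249 and 2836 with TMM). Under that scaling ko against wt under CL had 7 members higher and none lower, beside 8667 genes higher and 2237 lower (4561 and 4847 with TMM). These comparisons share groups, so their counts are not independent of each other.

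**Figure D1:**
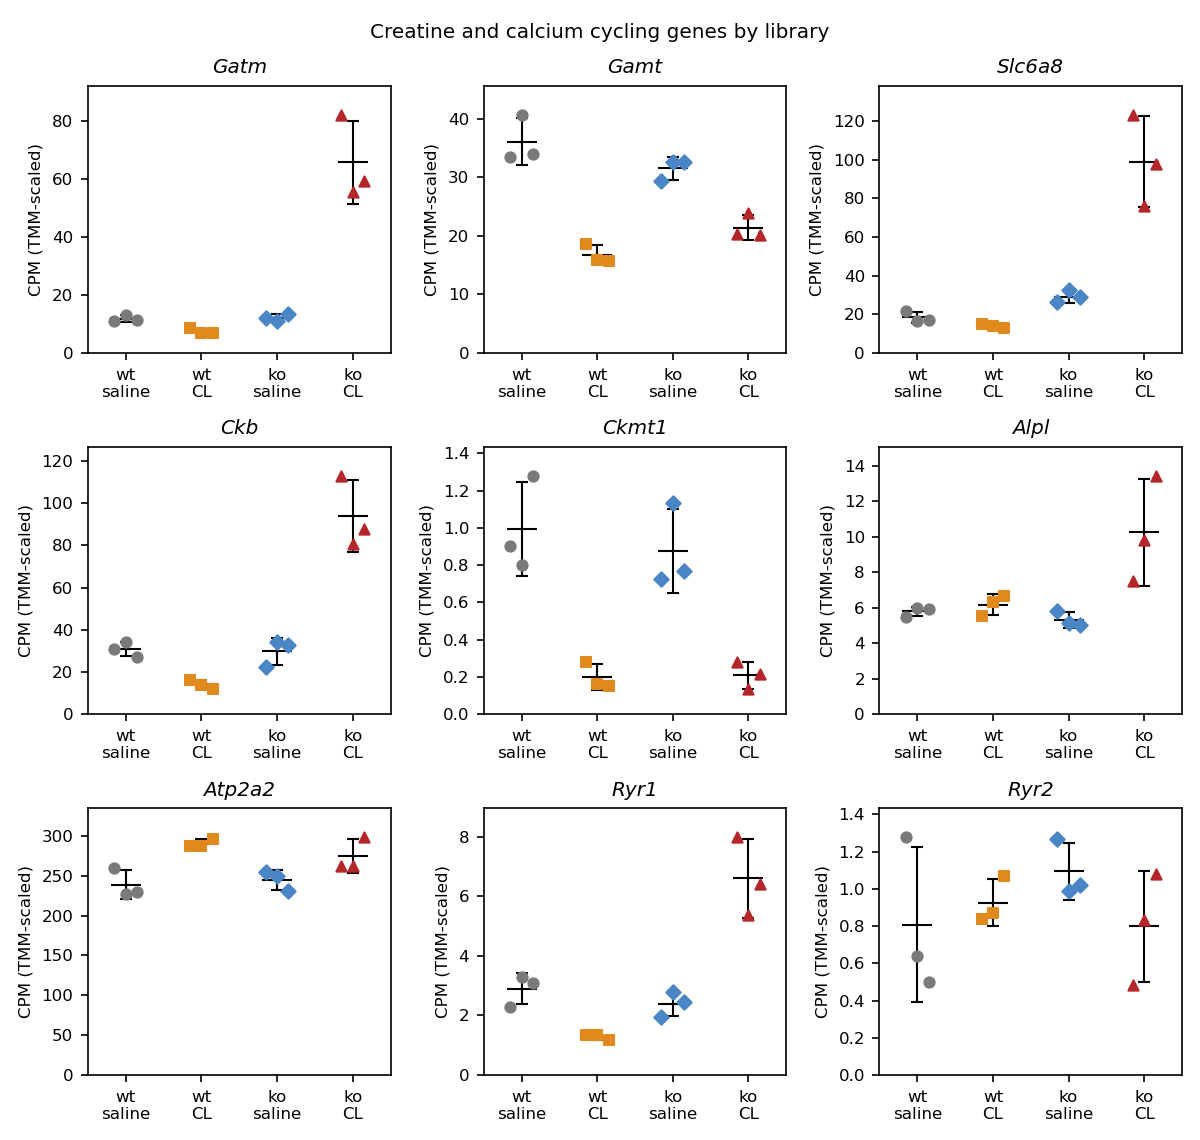
CPM of each of the 9 genes in the 12 libraries, 1 panel per gene and 1 point per library, by group, with a dash for each group's mean and a bar of 1 SD. Gatm, Slc6a8, Ckb and Ryr1 share one shape: the 3 ko CL libraries lie above the other 9, at 55.6 to 82.3 CPM for Gatm and 5.38 to 8.005 CPM for Ryr1.

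Gatm (ENSMUSG00000027199, chr2:122594467-122611303 on the minus strand) encodes glycine amidinotransferase, the enzyme of the committed step of creatine synthesis. Its level was 11, 13.1 and 11.4 CPM in wt saline, 8.55, 7.01 and 6.87 CPM in wt CL, 11.9, 10.9 and 13.4 CPM in ko saline, and 82.3, 55.6 and 59.5 CPM in ko CL. Every ko CL library exceeded every other library, and the wt CL libraries were the 3 lowest. CL lowered Gatm in wt by a log2 fold change of -0.67 ± 0.16 (edgeR adjusted p = 0.00641) and raised it in ko by 2.44 ± 0.15, or 5.43-fold (edgeR adjusted p = 3.14e-08). The 2 responses differed by 3.11 ± 0.22 (edgeR adjusted p = 3.03e-07), the largest difference among the 9 genes. Under CL, Gatm was 8.81-fold higher in ko than in wt (log2 3.14 ± 0.16, edgeR adjusted p = 5.41e-09). Under saline the genotypes differed by 0.03 ± 0.15, which was not called (edgeR adjusted p = 0.919).

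Gamt (ENSMUSG00000020150, chr10:80258151-80261012 on the minus strand) encodes guanidinoacetate methyltransferase, which completes creatine synthesis with a methyl group from S-adenosylmethionine. It stood at 33.5, 40.7 and 34.0 CPM in wt saline, 18.6, 15.8 and 15.8 CPM in wt CL, 29.3, 32.7 and 32.6 CPM in ko saline, and 20.3, 23.8 and 20.1 CPM in ko CL. It thus moved opposite to Gatm in ko: both CL groups lay below both saline groups. The fall was -1.11 ± 0.10 in wt (edgeR adjusted p = 7.91e-06) and -0.56 ± 0.10 in ko (edgeR adjusted p = 0.000439). The fall was smaller in ko by 0.55 ± 0.14 (edgeR adjusted p = 0.00721), and under CL Gamt was higher in ko by 0.36 ± 0.11 (edgeR adjusted p = 0.0105). Without ko CL library 2, the highest of its group, that last difference was 0.27 and no longer called (edgeR adjusted p = 0.0568). Under saline the ko libraries lay below the wt libraries without overlap, but the difference of -0.19 ± 0.10 was not called (edgeR adjusted p = 0.213).

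Slc6a8 (ENSMUSG00000019558, chrX:73673150-73682502 on the plus strand) encodes the creatine transporter of the plasma membrane. It was at 21.7, 16.8 and 17.0 CPM in wt saline, 15.2, 13.8 and 12.9 CPM in wt CL, 26.3, 32.6 and 28.8 CPM in ko saline, and 123, 76.0 and 97.4 CPM in ko CL. Slc6a8 is the 1 member called between the genotypes under saline, and every ko saline library exceeded every wt saline library. That difference was 0.66 ± 0.16 (edgeR adjusted p = 0.0177), and it was lost without wt saline library 2, wt saline library 3 or ko saline library 2, where it was 0.58 to 0.60. Markers of motile cilia and duct epithelium also separated these groups, with summed levels of 152 to 197 CPM in ko saline and 50.6 to 99.2 CPM in wt saline. With a score of those markers as a covariate, the Slc6a8 difference was 0.34 (edgeR adjusted p = 0.771). Genotype and these markers cannot be told apart under saline.

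In ko, CL raised Slc6a8 by 1.76 ± 0.16, or 3.39-fold (edgeR adjusted p = 9.78e-07). In wt its change of -0.41 ± 0.17 was not called (edgeR adjusted p = 0.0785), although the 2 wt groups did not overlap. It was called in 4 of 14 alternatives: with DESeq2 (-0.43), with library size alone (-0.73), without the filter on low counts (-0.45) and with only the compared groups in the fit (-0.43). The difference between the responses was 2.17 ± 0.23 (edgeR adjusted p = 9.92e-06). Under CL the transporter was 7.10-fold higher in ko than in wt (log2 2.83 ± 0.17, edgeR adjusted p = 2.34e-08).

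Ckb (ENSMUSG00000001270, chr12:111669361-111672338 on the minus strand) encodes the brain-type creatine kinase, which phosphorylates creatine. Its level was 30.8, 34.2 and 27.3 CPM in wt saline, 16.3, 13.8 and 12.1 CPM in wt CL, 22.5, 33.9 and 32.7 CPM in ko saline, and 113, 80.8 and 87.9 CPM in ko CL. The saline groups overlapped, the wt CL libraries were the 3 lowest and the ko CL libraries the 3 highest. CL changed Ckb by -1.13 ± 0.18 in wt (edgeR adjusted p = 0.000334) and by 1.66 ± 0.16, or 3.16-fold upward, in ko (edgeR adjusted p = 2.67e-06). The responses differed by 2.79 ± 0.24 (edgeR adjusted p = 1.7e-06), and Ckb was 6.70-fold higher in ko than in wt under CL (edgeR adjusted p = 4.76e-08). Under saline the difference was -0.05 ± 0.16 (edgeR adjusted p = 0.883).

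Ckmt1 (ENSMUSG00000000308, chr2:121357714-121363737 on the plus strand) encodes the ubiquitous mitochondrial creatine kinase, and its counts were low. It had 24, 20 and 36 counts in wt saline, 5, 3 and 3 in wt CL, 20, 31 and 24 in ko saline, and 8, 4 and 5 in ko CL. It passed the filter on low counts only through the saline libraries, and a filter of 1 CPM in 3 libraries removed it. Every CL library lay below every saline library, in both genotypes. The fall was -2.31 ± 0.41 in wt (edgeR adjusted p = 0.00073) and -2.05 ± 0.38 in ko (edgeR adjusted p = 0.00053), and the responses differed by 0.27 ± 0.58 (edgeR adjusted p = 0.739). At 3 to 8 counts per CL library, a difference between the genotypes under CL of this size was not detectable (0.07 ± 0.48, edgeR adjusted p = 0.914). Ckmt1 and Ckb, both creatine kinases, both fell in wt, and in ko Ckmt1 fell while Ckb rose. The filter kept Ckmt1 only through its saline libraries, which favours a fall under CL, so this contrast is a description. Ckmt1 shares 10 exon bases with Strc on the opposite strand, and counting was by strand according to the file names.

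Alpl (ENSMUSG00000028766, chr4:137741733-137796384 on the minus strand) encodes tissue-nonspecific alkaline phosphatase, the phosphocreatine hydrolase of the cycle. It stood at 5.498, 5.96 and 5.91 CPM in wt saline, 5.53, 6.30 and 6.67 CPM in wt CL, 5.84, 5.13 and 5.01 CPM in ko saline, and 7.48, 9.82 and 13.5 CPM in ko CL. The first 3 groups overlapped, and the ko CL libraries lay above them with a wide spread. CL raised Alpl in ko by 0.94 ± 0.18 (edgeR adjusted p = 0.000624), while the change of 0.09 ± 0.18 in wt was not called (edgeR adjusted p = 0.728). The difference between the responses was 0.85 ± 0.25 (edgeR adjusted p = 0.0155), and under CL Alpl was higher in ko by 0.73 ± 0.18 (edgeR adjusted p = 0.00367). With the cilia score as a covariate, the rise in ko was 0.59 and no longer called (edgeR adjusted p = 0.267). Neutrophils can carry this phosphatase, and the summed level of 8 neutrophil markers was 54.2 to 60.9 CPM in ko CL against 9.07 to 14.1 CPM in the other 9 libraries. Most of that sum was Csf3r, at 44.4 ± 3.26 CPM in ko CL (SD, n = 3), while S100a8 stood at 3.81 ± 0.504 CPM there and Ly6g at 0 to 0.104 CPM. The part of such cells in the Alpl result was not tested.

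Atp2a2 (ENSMUSG00000029467, chr5:122453513-122502225 on the minus strand) encodes SERCA2, the calcium pump of the reticulum. Its level was 260, 227 and 229 CPM in wt saline, 287, 287 and 296 CPM in wt CL, 254, 250 and 231 CPM in ko saline, and 262, 263 and 299 CPM in ko CL. It varied least of the 9 genes, 1.32-fold from the lowest to the highest library. CL raised it in wt by 0.28 ± 0.08 (edgeR adjusted p = 0.0115), and with scaling by library size alone this became -0.04, where the median of all genes was -0.33. In ko the change of 0.16 ± 0.08 was not called (edgeR adjusted p = 0.0857), and the responses differed by -0.12 ± 0.11 (edgeR adjusted p = 0.403), or 0.11 with library size alone. The genotypes differed by 0.04 ± 0.08 under saline (edgeR adjusted p = 0.784) and by -0.08 ± 0.08 under CL (edgeR adjusted p = 0.392). With library size alone the difference under CL was 0.31 and was called (edgeR adjusted p = 0.00423), where the median of all genes was 0.39.

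Ryr1 (ENSMUSG00000030592, chr7:29003344-29125179 on the minus strand) encodes the ryanodine receptor of skeletal muscle. It stood at 2.30, 3.28 and 3.10 CPM in wt saline, 1.34, 1.36 and 1.17 CPM in wt CL, 1.96, 2.78 and 2.46 CPM in ko saline, and 8.005, 5.38 and 6.42 CPM in ko CL. The order of the groups was that of Ckb: wt CL lowest, the overlapping saline groups between, ko CL highest. CL changed Ryr1 by -1.16 ± 0.23 in wt (edgeR adjusted p = 0.00146) and by 1.46 ± 0.20 in ko (edgeR adjusted p = 5.08e-05). The responses differed by 2.62 ± 0.30 (edgeR adjusted p = 1.98e-05), and under CL Ryr1 was 5.11-fold higher in ko than in wt (edgeR adjusted p = 1.29e-06). The rise in ko was 0.94 and no longer called with the cilia score as a covariate (edgeR adjusted p = 0.104). The summed level of 16 skeletal muscle markers, of which Acta1 was the most abundant, was 39.2 to 78.6 CPM in wt saline, 10.8 to 12.5 CPM in wt CL, 15.8 to 26.4 CPM in ko saline and 13.0 to 14.7 CPM in ko CL. Of the 10 muscle markers tested, CL lowered 2 and raised 1 in wt, and lowered 2 and raised 2 in ko. The shares of all genes were 17.1% lower and 19.6% higher in wt, and 27.5% lower and 27.2% higher in ko. Under CL, 4 (Acta1, Actn3, Tnni2 and Tnnt3) were higher in ko than in wt and 1 (Neb) was lower, against 27.6% and 29.3% of all genes. The difference in response was positive for 3 (Acta1, Actn3 and Tnni2) and negative for none, against 21.8% and 23.6% of all genes. The part of muscle RNA in the Ryr1 result was not tested. Ryr1 shares 914 exon bases with genes on the opposite strand, mainly the antisense gene Gm26604.

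Ryr2 (ENSMUSG00000021313, chr13:11553102-12106945 on the minus strand) encodes the ryanodine receptor of the heart and is the one tied to calcium cycling in beige fat. Its level was 1.28, 0.64 and 0.50 CPM in wt saline, 0.84, 0.87 and 1.07 CPM in wt CL, 1.27, 0.99 and 1.02 CPM in ko saline, and 0.49, 0.83 and 1.08 CPM in ko CL, from 14 to 35 counts per library. All 4 groups overlapped, and no comparison called Ryr2. Its change under CL was 0.20 ± 0.38 in wt (edgeR adjusted p = 0.716) and -0.46 ± 0.37 in ko (edgeR adjusted p = 0.307), with wide standard errors at these counts. Ryr1 and Ryr2 thus did not move together, and the difference in CL response was -0.66 ± 0.53 for Ryr2 (edgeR adjusted p = 0.335).

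**Figure D2:**
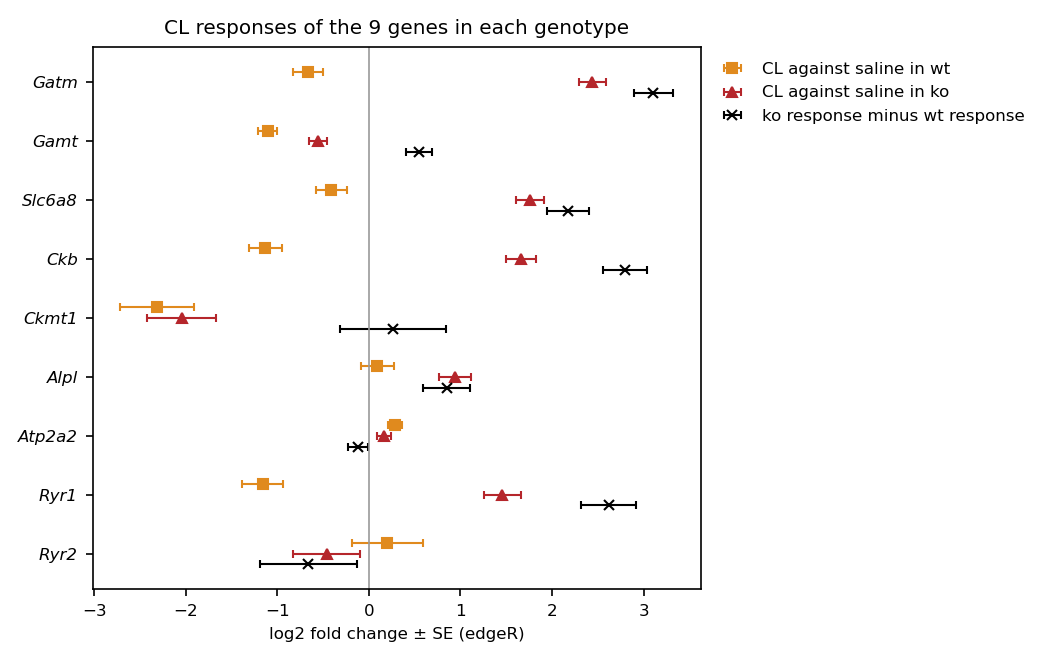
Log2 fold change under CL for each of the 9 genes, in wt and in ko, and the difference between the responses, with bars of 1 standard error from the edgeR model over 12 libraries. Gatm, Ckb and Ryr1 lie below 0 in wt and above 0 in ko, Gamt and Ckmt1 lie below 0 in both, and no response of Ryr2 was called.

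To compare the genes with each other, levels were divided by exon length and are given as mean CPM per kb. In wt saline the order was Atp2a2 at 39.3, Gamt at 25.0, Ckb at 10.6, Gatm at 3.95, Slc6a8 at 3.55, Alpl at 1.44, Ckmt1 at 0.399, Ryr1 at 0.132 and Ryr2 at 0.0280 CPM per kb. Gatm and Slc6a8, neighbours in that order, overlapped there, at 3.66 to 4.38 against 3.22 to 4.17 CPM per kb. In ko CL, Atp2a2 stayed first at 45.2 CPM per kb, and Ckb came next at 32.5, Gatm at 21.9, Slc6a8 at 18.98 and Gamt at 14.8 CPM per kb. The libraries of Gatm and Slc6a8 overlapped again, and so did those of Slc6a8 and Gamt. Within creatine synthesis, Gamt exceeded Gatm in wt saline, wt CL (11.6 against 2.49 CPM per kb) and ko saline (21.8 against 4.03 CPM per kb), and Gatm exceeded Gamt in ko CL.

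Gatm followed macrophage markers across the 12 libraries. Per 1000 CPM of the 19 markers, whose most abundant members were Lyz2, Ctss and Csf1r, Gatm stood at 5.80 to 6.56 CPM in wt saline, 5.79 to 7.07 CPM in wt CL, 5.89 to 7.02 CPM in ko saline and 5.58 to 6.09 CPM in ko CL. All 4 groups overlapped on this scale, with a range of 1.27-fold over the libraries, where Gatm itself ranged 12.0-fold. This range is a measure chosen after the data were seen. Per 1000 CPM of adipocyte markers, Gatm stood at 0.226 to 0.278 CPM in wt saline, 0.133 to 0.154 CPM in wt CL, 0.436 to 0.492 CPM in ko saline and 2.62 to 6.33 CPM in ko CL. That is a range of 47.6-fold.

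The narrow range depended on how macrophages were summed. It was 1.54-fold without the 3 most abundant markers, 1.76-fold with their geometric mean and 3.52-fold with 10 markers of lipid-associated macrophages such as Gpnmb. The last sum rose from 449 to 502 CPM in ko saline to 5751 to 9279 CPM in ko CL, more than Gatm did. The change of Gatm per macrophage level under CL in ko was -0.16 (log2) with the sum of 19 markers, -1.53 with the lipid-associated sum, 0.37 without the 3 most abundant markers and 0.53 with the geometric mean. So its sign depended on the markers chosen, while its size stayed under the 2.44 of Gatm itself. These are bulk libraries, and the cells in which Gatm was transcribed were not observed.

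The macrophage list itself moved as Gatm did. In wt, CL lowered 16 of its 19 genes and raised none, against 17.1% and 19.6% of all genes. In ko, CL raised 16 and lowered 2, Cx3cr1 and Lyve1, the latter a marker of resident macrophages. The shares of all genes in ko were 27.2% higher and 27.5% lower. The difference in response was positive for 17 and negative for 1, against 21.8% and 23.6% of all genes. Under saline, none of the 19 differed between the genotypes, where 7.99% of all genes were higher in ko and 6.45% lower. No marker on this list was at 0 counts in all libraries. The adipocyte list went the other way in ko, with 8 of 11 genes lower and none higher under CL, and in wt 2 were higher and 1 lower.

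Slc6a8, Ckb and Ryr1 followed the macrophage sum less closely than Gatm. Relative to it their ranges over the 12 libraries were 2.27-fold for Slc6a8, 2.23-fold for Ckb and 2.99-fold for Ryr1, where their own ranges were 9.53-fold, 9.38-fold and 6.84-fold. The gap to Gatm was smaller with the geometric mean of the markers. There the ranges were 2.15-fold, 1.85-fold and 1.965-fold, against 1.76-fold for Gatm. Per 1000 macrophage CPM, Ckb fell from 12.3 to 18.3 CPM in ko saline to 8.24 to 8.38 CPM in ko CL, and Ryr1 from 1.07 to 1.503 CPM to 0.548 to 0.603 CPM. Slc6a8 went from 14.4 to 17.6 CPM to 7.74 to 9.15 CPM. So each of these 3 genes rose less than the macrophage sum in ko. For the other members the relative range exceeded the gene's own, at 11.1-fold for Alpl, 13.5-fold for Gamt, 14.5-fold for Atp2a2, 25.1-fold for Ryr2 and 49.4-fold for Ckmt1. Most fibroblast and progenitor markers, such as Dcn, Dpt and Col1a1, fell with Ckb and Ryr1 under CL in wt. In ko the list moved in both directions, although its sum rose. The summed level of those 9 markers was 2763 to 2921 CPM in wt saline, 1697 to 1945 CPM in wt CL, 2527 to 2870 CPM in ko saline and 3267 to 3913 CPM in ko CL. CL lowered 7 of them and raised none in wt, where 17.1% of all genes were lower and 19.6% higher. In ko it raised 3 and lowered 2, against 27.2% and 27.5% of all genes, with a median log2 fold change of 0.15. Under CL, 8 were higher in ko than in wt and none lower, against 27.6% and 29.3% of all genes. The response was more positive in ko for 6 and more negative for none, against 21.8% and 23.6% of all genes. The part of macrophages and of fibroblasts in the results of the members, Gatm included, was not tested.

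**Figure D3:**
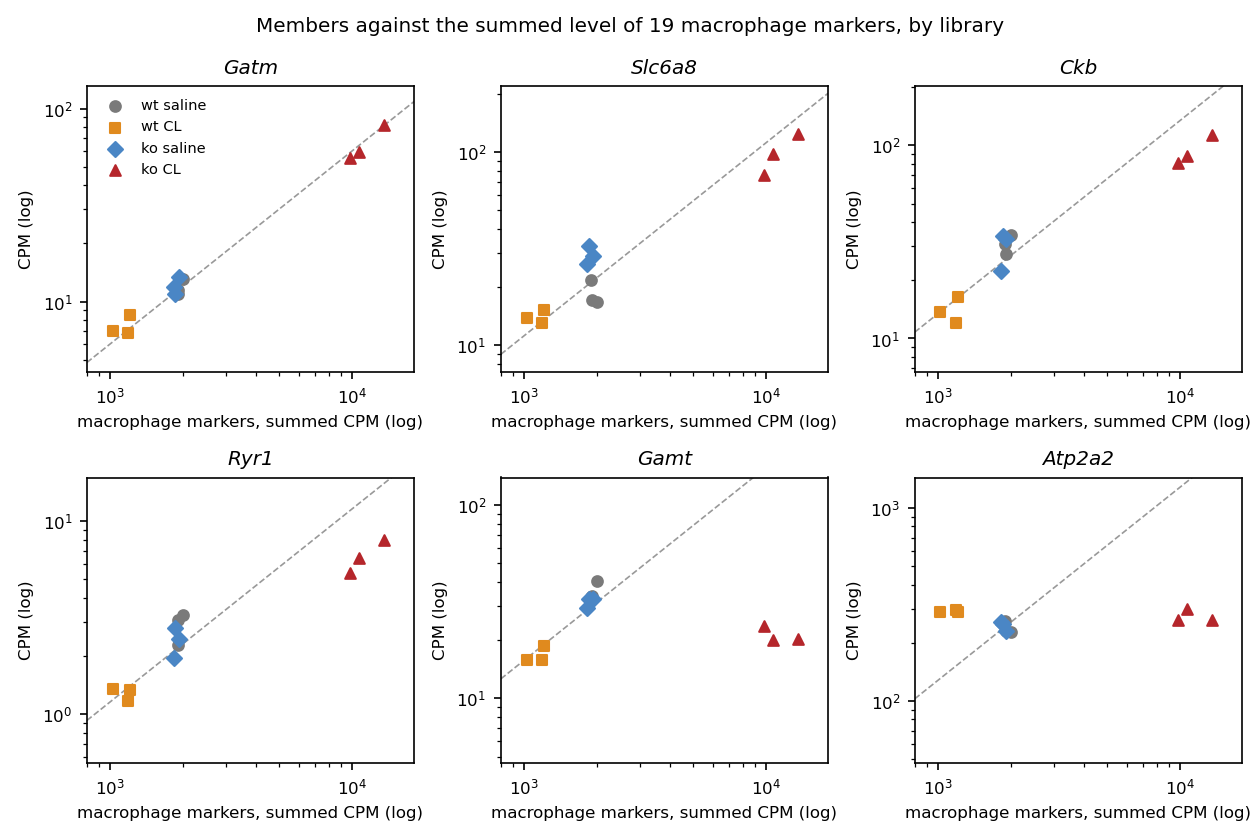
Level of Gatm, Slc6a8, Ckb, Ryr1, Gamt and Atp2a2 in CPM against the summed CPM of 19 macrophage markers, on log axes, 1 point per library, with a dashed line at the gene's median ratio to that sum. The Gatm points lie along the line in all 4 groups, from 1022 to 13506 CPM of markers, with a relative range of 1.27-fold.

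**Figure D4:**
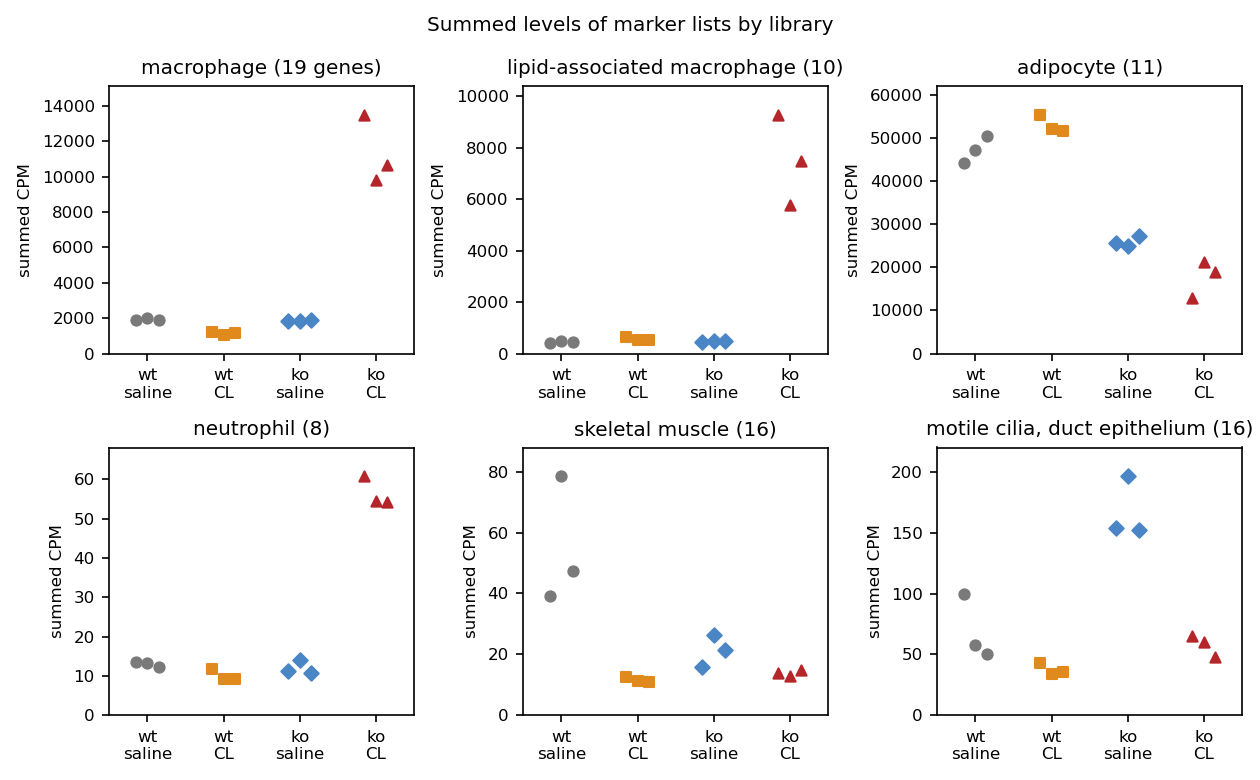
Summed CPM of cell type marker lists in the 12 libraries, by group, on linear axes that start at 0. Macrophage and lipid-associated macrophage sums are highest in the 3 ko CL libraries, and the adipocyte sum is lowest there, at 12999 to 21240 CPM.

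The genes whose profile was most like each member were taken as the 3 with the highest Pearson correlation of log2 CPM over the 12 libraries, among protein-coding genes of at least 5 CPM. Because the libraries fall into 4 groups, these correlations mostly rest on 4 levels and carry no p-value. Gatm was most like Fcgr3 (r = 0.9973), Cd53 (0.9973) and Ptpro (0.9972). Ckb was most like Col5a2, a fibrillar collagen gene (r = 0.9932), Nfatc2 (0.9923) and Sfxn3 (0.9904). Slc6a8 was most like Osbpl3 (r = 0.9893), Slc25a30 (0.9892) and Tmem164 (0.9889). Such a correlation does not measure the size of a change. Under CL in ko, Col5a2 rose 1.49-fold where Ckb rose 3.16-fold, and Fcgr3 rose 6.46-fold where Gatm rose 5.43-fold. Ryr1 was most like Gltp (r = 0.9839) and then like Ckb (0.9826), the one case in which another member was among the 3. Gamt was most like Efemp1 (r = 0.9719) and Mt2 (0.9716), and Ckmt1 like Tmtc1 (r = 0.9814), with the calcium pump gene Atp2a3 in the next place but one (0.9749). The best matches were weaker for 3 members, with Ddit3 for Alpl (r = 0.9294), Naa25 for Atp2a2 (r = 0.9314) and Arhgap32 for Ryr2 (r = 0.8785).

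Other genes of energy transfer around creatine kinase form a list of 12, which holds carriers, porins and kinases, and 9 could be tested. Ckm, Ckmt2 and Phospho1 could not, and Phospho1, another candidate phosphatase of the cycle, had 0 counts in every library. CL raised 7 of the 9 in wt and lowered none, and their median was 0.51. In ko it raised 2 and lowered 1, and the response was lower in ko for 6 and higher for none. Among all genes, 19.6% rose and 17.1% fell in wt, and 27.2% rose and 27.5% fell in ko. The response was lower in ko for 23.6% of all genes and higher for 21.8%. Slc25a5, which exchanges ADP for ATP across the inner mitochondrial membrane, rose by 1.05 ± 0.10 in wt (edgeR adjusted p = 7.03e-06). The porin genes of the outer membrane rose with it in wt: Vdac1 by 0.69 ± 0.07, Vdac3 by 0.50 ± 0.06 and Vdac2 by 0.49 ± 0.07. Slc16a12, a creatine exporter, had the most clearly different responses, lower in ko by 1.20 on the log2 scale (difference -1.20 ± 0.20, edgeR adjusted p = 0.000316). Its level averaged 46.3 ± 10.03 CPM in wt saline, 66.5 ± 8.66 CPM in wt CL, 40.1 ± 2.42 CPM in ko saline and 25.1 ± 2.76 CPM in ko CL (SD, n = 3 each). The importer Slc6a8 and the exporter Slc16a12 were thus changed in opposite directions in ko CL.

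Of 25 genes that supply arginine, glycine and methyl groups, the substrates of Gatm and Gamt, 23 were tested. CL raised 3 and lowered 3 in wt, and raised 7 and lowered 7 in ko. Among all genes, 19.6% rose and 17.1% fell in wt, and 27.2% rose and 27.5% fell in ko. The arginine transporter genes Slc7a2 and Slc7a7 responded more positively in ko, by 1.54 ± 0.24 and 1.31 ± 0.16, and the serine synthesis genes Psph and Psat1 more negatively, by -1.18 ± 0.17 and -0.58 ± 0.10. In wt, Phgdh, the entry enzyme of serine synthesis, fell by 1.54 on the log2 scale (-1.54 ± 0.10, edgeR adjusted p = 9.02e-07). Arg1, which splits arginine, changed there by -2.44 ± 0.61 (edgeR adjusted p = 0.0074), with means of 5.81 ± 3.21 CPM in wt saline and 1.06 ± 0.556 CPM in wt CL (SD of 3 libraries). Psph rose by 0.98 ± 0.12, and Pemt, which consumes methyl groups, by 0.59 ± 0.13, though with library size alone Pemt was at 0.28 and not called (edgeR adjusted p = 0.0968).

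Around Atp2a2 and the ryanodine receptors, 26 of 30 other calcium genes of the reticulum were tested. Atp2a1, Ryr3, Hrc and Sln, which encodes the SERCA regulator sarcolipin, were not. CL raised 4 and lowered 5 in wt, raised 7 and lowered 9 in ko, and none differed under saline. The shares of all genes were 19.6% higher and 17.1% lower in wt, and 27.2% higher and 27.5% lower in ko. Under saline, 7.99% of all genes were higher in ko than in wt and 6.45% lower. Fkbp1b encodes a small protein that binds ryanodine receptors, and its response differed by 2.49 ± 0.34 (edgeR adjusted p = 7.15e-05), in the direction of Ryr1. Its means were 2.79 ± 0.633, 1.59 ± 0.503, 2.49 ± 0.161 and 8.01 ± 1.62 CPM in wt saline, wt CL, ko saline and ko CL (SD, n = 3 each). The reticulum chaperone Calr was also more positive in ko (0.76 ± 0.11), and the release channel Itpr1 (-0.70 ± 0.10) and the store sensor Stim1 (-0.54 ± 0.09) were more negative. In wt, CL changed Atp2a3, a SERCA gene of blood cells and endothelium, by -0.94 ± 0.11, Itpr3 by -0.53 ± 0.11, Calr by -0.41 ± 0.08 and Tmem38b by 0.63 ± 0.08.

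All 9 genes of mitochondrial calcium uptake and release were tested. CL raised 4 and lowered 2 in wt, against 19.6% and 17.1% of all genes. It raised 5 and lowered 1 in ko, against 27.2% and 27.5% of all genes. Mcub, the dominant-negative subunit of the calcium uniporter, changed by -0.93 ± 0.19 in wt, and its response was more positive in ko by 2.58 ± 0.26 (edgeR adjusted p = 6.19e-06). Slc8b1, the sodium-calcium exchanger of the inner membrane, changed by -0.43 ± 0.10 in wt, with a response more positive in ko by 1.70 ± 0.14 (edgeR adjusted p = 1.04e-06). Letm1 and Mcur1 rose in wt, by 1.19 ± 0.11 and 0.52 ± 0.10, and their responses were lower in ko, at -1.07 ± 0.15 and -0.62 ± 0.14. With library size alone the rise of Mcur1 was 0.21 and not called (edgeR adjusted p = 0.0695).

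Of 8 phosphate and pyrophosphate genes around Alpl, 4 were tested. Enpp1 makes pyrophosphate, the substrate that Alpl splits in bone. It changed by -0.79 ± 0.20 in wt, and its response was more positive in ko by 2.38 ± 0.26 (edgeR adjusted p = 1.15e-05). The pyrophosphate exporter Ank rose in wt by 0.49 ± 0.11, which with library size alone was 0.17 and not called (edgeR adjusted p = 0.144). The phosphate importers Slc20a1 and Slc20a2 responded more negatively in ko, at -0.50 ± 0.11 and -0.39 ± 0.12. The Slc20a2 difference was not called with library size alone (-0.16, edgeR adjusted p = 0.312) or with the cilia score (-0.43, edgeR adjusted p = 0.0542).

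Of 12 receptors and nuclear receptors upstream of thermogenesis, 11 were tested. CL raised 6 and lowered 2 in wt, and raised 2 and lowered 6 in ko. Among all genes, 19.6% rose and 17.1% fell in wt, and 27.2% rose and 27.5% fell in ko. The response was lower in ko for 6 of the genes tested and higher for none, against 23.6% and 21.8% of all genes. Adrb3, the target of beta-3 agonists, averaged 741 ± 38.3 CPM in wt saline, 521 ± 17.3 CPM in wt CL, 409 ± 32.8 CPM in ko saline and 73.0 ± 9.97 CPM in ko CL (SD, n = 3 each). Its response was lower in ko by 1.98 on the log2 scale (-1.98 ± 0.14, edgeR adjusted p = 3.14e-07). Esrrg, an estrogen-related receptor, rose in wt by 1.98 ± 0.24, with a response that differed by -2.85 ± 0.34 in ko. In wt, Adra1a, an alpha-1 receptor gene, rose by 1.06 ± 0.10 and Esrra by 0.64 ± 0.09. Responses in ko were also lower for Ppargc1a, at -1.27 ± 0.25, and for Adrb1, at -1.74 ± 0.38.

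Thermogenic reference genes rose in both genotypes, 8 of 9 in wt and 6 of 9 in ko, where 1 fell. Ucp1 uncouples respiration from ATP synthesis. In wt it ranged from 0 to 0.339 CPM under saline and from 76.6 to 94.6 CPM under CL. In ko its range was 0.0638 to 0.181 CPM under saline and 10.2 to 51.9 CPM under CL. The difference between its responses, -0.23 ± 2.63, was not called (edgeR adjusted p = 0.951), with a wide standard error at these saline levels. Under CL, Ucp1 was lower in ko than in wt without overlap (log2 -1.145 ± 0.401, edgeR adjusted p = 0.0267). In that comparison 8 of the 9 thermogenic genes were lower in ko and none higher, against 29.3% and 27.6% of all genes. In wt, Elovl3, Cox7a1 and Cox8b rose by 8.19 ± 0.57, 3.54 ± 0.31 and 3.31 ± 0.39. Responses were lower in ko for Ppara, Dio2 and Cidea, at -1.92 ± 0.30, -1.33 ± 0.44 and -1.78 ± 0.62. The Dio2 difference lost its call in 6 alternatives (-1.40 to -0.92): library size alone, the cilia score, and without wt saline 2, wt CL 2, ko saline 1 or ko CL 1. The Cidea difference lost it in 9 (-2.23 to -1.53): library size alone, the cilia score, and without wt saline 1 or 2, wt CL 1 or 3, ko saline 1 or 3, or ko CL 3. Of the 6 creatine cycle members, none rose in wt, while Gatm, Gamt, Ckb and Ckmt1 fell. The last of these passed the filter on low counts only through its saline libraries. In wt 19.6% of all genes rose and 17.1% fell. In ko, 4 of the 6 rose (Gatm, Slc6a8, Ckb and Alpl) and 2 fell (Gamt and Ckmt1), against 27.2% and 27.5% of all genes. A relation of these changes to the thermogenic genes was not tested.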

How the data were processed

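The authors deposited unnormalized counts per gene, from STAR and HTSeq on GRCm38 per the submitters' processing notes. Their versions and the annotation used are not given in the sources here, and the file names state reverse-strand counting. Of 53379 identifiers, 53274 were matched to GENCODE M21. The 5 summary lines of unassigned reads (12.5% to 17.2% of a library) were left out. Groups came from the titles, because a genotype characteristic follows the treatment and contradicts 6 of the 12 titles.

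Counts were tested in R 4.3.3 with edgeR 4.0.16: filterByExpr with a minimum count of 10, TMM, 1 mean per group, 8 residual degrees of freedom, and glmQLFTest. The biological coefficient of variation was 11.5%. Standard errors are the log2 fold change over the root of F. The procedure was tested on simulated data. Replicates differed beyond sampling noise in all 12 pairs (chi-square per degree of freedom 7.44 to 60.3). Same-numbered libraries did not deviate together (r -0.219 to 0.129 over pairs), so no replicate block was used in the main test.

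The members and lists were chosen with earlier results of these data known. Other genes named are up to 4 per pathway list with the smallest adjusted p, in the difference of responses and in CL against saline in wt, and up to 3 most abundant markers per cell type list. Genes that met the rule but are not reported here were left out. A few others were named after their values were seen (Gpnmb, Cx3cr1, Lyve1, Csf3r, S100a8, Ly6g, Tnni2 and Tnnt3). Profile likeness used log2(CPM + 0.5), and exon lengths are of GENCODE M21. Promoters are RefSeq's, in GRCm38.p6. Alternatives were other scalings (library size alone, RLE and DESeq2 1.42.0), other filters, a replicate block, a cilia score as covariate, the compared groups alone and each library left out.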

Additional observations from a re-analysis of the deposited data

Results flagged for a closer look

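The CL response differed between the genotypes, by the interaction contrast of the edgeR model, in each result given here, as log2 response in ko minus response in wt. Over all genes tested, 21.8% were called with a positive difference and 23.6% with a negative one. Among the members the difference was 3.11 for Gatm, 2.79 for Ckb, 2.62 for Ryr1, 2.17 for Slc6a8, 0.85 for Alpl and 0.55 for Gamt. The creatine exporter Slc16a12 had -1.20, and the porins Vdac1 and Vdac3 had -0.55 and -0.44. In substrate supply it was 1.54 for Slc7a2, 1.31 for Slc7a7, -1.18 for Psph and -0.58 for Psat1. Among reticulum calcium genes it was 2.49 for Fkbp1b, 0.76 for Calr, -0.70 for Itpr1 and -0.54 for Stim1. In mitochondrial calcium handling it was 2.58 for Mcub, 1.70 for Slc8b1, -1.07 for Letm1 and -0.62 for Mcur1. The phosphate genes Enpp1, Slc20a1 and Slc20a2 had 2.38, -0.50 and -0.39. The upstream and thermogenic genes given here were chosen among called genes. Their values were negative: Esrrg -2.85, Adrb3 -1.98, Ppara -1.92, Cidea -1.78, Adrb1 -1.74, Dio2 -1.33 and Ppargc1a -1.27. Of those tested, 5 of 11 upstream genes and 6 of 9 thermogenic genes were not called for this difference.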

How the results depend on the processing

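The difference in CL response of Gatm, Slc6a8, Ckb and Ryr1 kept its direction and call in all 19 alternatives (2.90 to 3.34, 1.97 to 2.40, 2.61 to 3.02 and 2.25 to 2.84). The numbers do not pair the libraries, and a replicate block left 6 members called for that difference and 7147 genes (7510 without it), and changed no count by over 1.5 times. Scaling by library size alone moved the genes called for CL in wt from 6085 to 9377 (1329 higher, 8048 lower) and for ko against wt under saline from 2391 to 4239. It turned CL in wt to -0.22 for Alpl, -0.035 for Atp2a2 and -0.12 for Ryr2, ko against wt under saline to 0.11 for Ckb and 0.034 for Alpl, ko against wt under CL to 0.31 for Atp2a2 and 0.16 for Ryr2, and the difference in response to 0.11 for Atp2a2. The cilia score as a covariate left 3454 of 9043 genes for CL in ko, and 97 genes and 0 members under saline. It turned CL in wt to -0.019 for Alpl, CL in ko to 0.54 for Ryr2, and ko against wt under saline to 0.21 for Alpl, -0.10 for Atp2a2, 0.24 for Ryr1 and -0.43 for Ryr2. With that score, the difference in response was no longer called for Gamt (0.48), Alpl (0.61), Slc20a2 (-0.43), Dio2 (-1.40) and Cidea (-2.23). Library size alone also ended the calls of Pemt, Mcur1 and Ank for CL in wt and of Slc20a2, Dio2 and Cidea for the difference in response. The causes were not tested. Leaving out 1 library gave 0 to 1 members and 1065 to 2269 genes for ko against wt under saline. The other sign changes with 1 library left out were in values that were not called: Ryr2 for CL in wt (-0.055 to 0.69), Gatm (-0.049 to 0.11), Ckb (-0.15 to 0.12) and Ckmt1 (-0.41 to 0.034) under saline, Ckmt1 (-0.21 to 0.39) and Ryr2 (-0.50 to 0.032) under CL, and the Ckmt1 difference in response (-0.019 to 0.58). Gatm per macrophage level changed by -0.16 under CL in ko with the sum of 19 markers. It changed by 0.53 with the geometric mean, 0.37 without the 3 most abundant markers and -1.53 with the lipid-associated sum. All but the first of these, and the ranges over the 12 libraries, were chosen after the data were seen. Depth limits Ckmt1 and Ryr2, which had at most 36 counts in a library.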
